A study of Mus musculus with 6 samples.

Results

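The genes described here carry the symbols of mitochondrial ribosomal proteins, and nearly all encode proteins of that ribosome. They were all gene symbols of the count table that begin with *Mrpl* or *Mrps* and a number, with pseudogene names left out and at least 10 counts required in each of 4 libraries. There were 78 such genes among the 35602 genes of the table, and the count minimum and the pseudogene rule each removed 0. The lowest count of a member in any of these libraries was 131, for *Mrpl41*. All 78 passed the filter on low counts and were tested, and all 78 were listed in the separate tables of the replicate 1 pair. The mitochondrial ribosome translates the few messages of mitochondrial DNA, which encode core subunits of the respiratory chain and ATP synthase. Its RNA comes from mitochondrial DNA, whereas all of its proteins are made in the cytosol from nuclear genes and imported. Activated T cells are known to build mitochondria and to translate mitochondrial messages as they leave quiescence.

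CD4+ T cells from mouse spleen were stimulated with anti-CD3/CD28 antibodies and given either MAPK13-inhibitors (labelled MAPK13-IN-1), which target the protein kinase of the *Mapk13* gene, or DMSO as the solvent control. Polyadenylated RNA was sequenced. The series gives 72 h of culture with the compound, but the labels of replicates 2 and 3, which give a wild-type genotype, place the addition of 17.1 µM inhibitor or of DMSO after day 1. Strain and age were not given in the labels. Each group had 3 libraries. Replicates 2 and 3 were counted per gene, and their totals were 26874805 and 28487403 counts for DMSO and 33854760 and 32617702 counts for MAPK13-inhibitors. The replicate 1 pair came from another library kit and was deposited as values per gene. They are read here as FPKM, that is fragments per length of transcript and per size of library, which is an inference from the values themselves. Its depth is unknown. Because it holds 1 library per group, it entered no test. The labels do not say that replicates came from separate cultures or animals, so p-values measure the spread between these libraries, which may be technical.

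The question was how the mitochondrial ribosomal protein genes of MAPK13-inhibitors-treated cells compared with those of DMSO-treated cells. Of the 78 genes, 40 were lower with the inhibitor (51.3%), 11 were higher (14.1%) and 27 were not called. A call means a Benjamini-Hochberg adjusted p below 0.05 over all genes in the quasi-likelihood test of edgeR. Of all 16269 genes tested, 32.3% were lower and 31.5% were higher, so calls were common in both directions. These genes were not matched to the members for level, and levels are compared below. The median log2 fold change was −0.28 over the members and 0.01 over all genes tested. The change was not shared by the whole set, because log2 fold changes ran from −1.69 for *Mrps2* to 1.29 for *Mrps6*. The quartiles of the members were −0.69 and 0.15. The SD of the log2 fold change was 0.558 over the members and 1.2 over all genes tested. It was 0.224 over the 76 cytosolic ribosomal protein genes and 0.628 over 85 nuclear genes for respiratory chain subunits. The SE of a member's log2 fold change ranged from 0.0567 for *Mrpl45* to 0.163 for *Mrpl41*.

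The size of the split depended on the scaling of the libraries. Scaling by library totals moved the median of all genes by 0.125 on the log2 scale, and 35 members were then lower and 22 higher, so the share of lower genes among those called was 61.4% in place of 78.4%. Over all genes tested this share moved as well, from 50.6% to 41.1%. With upper-quartile scaling 38 were lower and 18 higher (67.9%, and 44.3% over all genes). The number of higher members also rested on the DMSO libraries. Without DMSO replicate 2 it was 6, and without DMSO replicate 3 it was 7.

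The summed counts of the members took a similar share of the total counts of each library. They made up 0.237% of all counts in DMSO replicate 2 (95% Wilson interval 0.235% to 0.239%) and 0.239% in DMSO replicate 3 (0.238% to 0.241%). With the inhibitor they made up 0.240% in replicate 2 (0.238% to 0.241%) and 0.236% in replicate 3 (0.234% to 0.238%). These intervals cover counting error only, and the shares of the groups overlapped. The fold changes use another scale, with TMM factors of 0.96 and 0.955 for DMSO and 1.05 and 1.04 for the inhibitor. On that scale the sums lie lower with the inhibitor than with DMSO. The sum is weighted towards the members with the most counts, of which *Mrpl45* and *Mrpl9* rose. In the replicate 1 pair the members made up 0.613% of the summed FPKM with DMSO and 0.567% with the inhibitor.

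**Figure D1:**
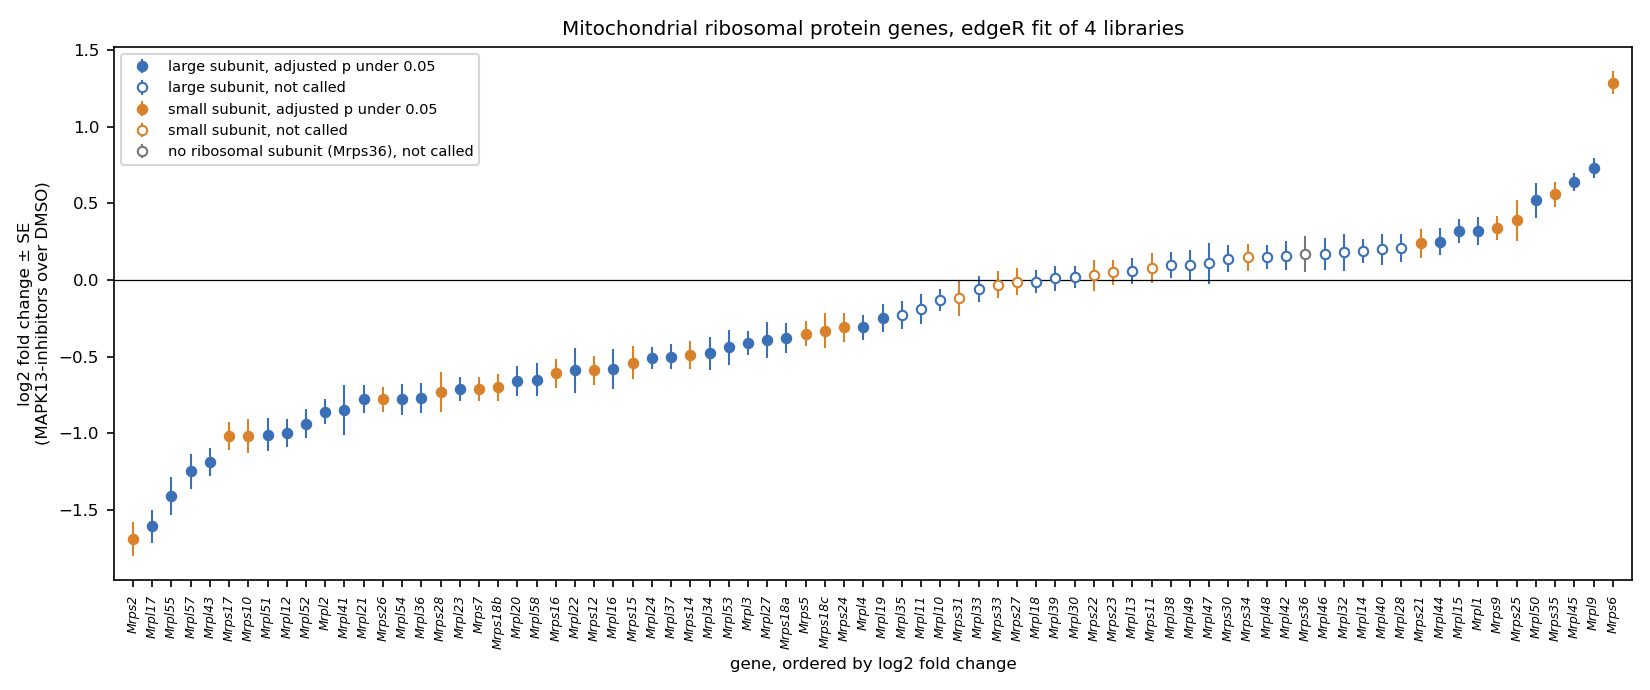
Log2 fold change with its SE (MAPK13-inhibitors over DMSO, edgeR, replicates 2 and 3 of each group) on the y axis for each of the 78 genes, ordered on the x axis by value; colours mark the ribosomal subunit and filled points an adjusted p under 0.05. The 40 lower genes reach −1.69 and the 11 higher genes reach 1.29.

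*Mrps2*, which encodes a small subunit protein with a bacterial counterpart, had the largest fall. It was at 24.2 and 23.3 CPM (a gene's counts relative to the TMM-scaled library size) in the DMSO libraries and at 7.66 and 7.02 CPM in the MAPK13-inhibitors libraries. The log2 fold change was −1.69 ± 0.112 (SE, n = 2 per group, edgeR adjusted p = 6.8e-07), which leaves 0.31 of the DMSO level. *Mrpl17*, for a large subunit protein, was at 26.5 and 30.1 CPM with DMSO and at 9.47 and 9.12 CPM with the inhibitor. It fell by 1.61 on the log2 scale (SE 0.11, edgeR adjusted p = 8.41e-07). The groups did not overlap for either gene, and the same holds for 67 of the 78 members and for 83.0% of all genes tested.

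*Mrpl55* was at 21.3 and 19.1 CPM with DMSO and at 7.02 and 8.20 CPM with the inhibitor, a log2 fold change of −1.41 ± 0.126 (SE, edgeR adjusted p = 5.05e-06). *Mrpl57*, a large subunit gene whose product has no bacterial counterpart, was at 24.5 and 27.8 CPM with DMSO and at 10.5 and 11.5 CPM with the inhibitor (log2 fold change −1.25 ± 0.112, edgeR adjusted p = 5.14e-06). *Mrpl43* was at 45.1 and 43.7 CPM with DMSO and at 18.2 and 20.7 CPM with the inhibitor (log2 fold change −1.19 ± 0.0929, edgeR adjusted p = 2.05e-06). It shares 507 exonic bases, 33.4% of its own, with *Twnk* on the opposite strand. *Twnk*, the mitochondrial DNA helicase, fell by 1.28 on the log2 scale. The protocol of these libraries as given does not mark strand, so reads of the shared bases cannot be told apart. *Mrps17* was at 33.8 and 33.3 CPM with DMSO and at 16.0 and 17 CPM with the inhibitor (log2 fold change −1.02 ± 0.0917, edgeR adjusted p = 5.14e-06). In all 6 genes each inhibitor library lay below both DMSO libraries, which their selection as the largest falls favours.

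The largest rise was in *Mrps6*, for a small subunit protein with a bacterial counterpart. It was at 30.9 and 33.2 CPM in the DMSO libraries and at 79.1 and 77.2 CPM in the MAPK13-inhibitors libraries. This is 2.44-fold, or 1.29 ± 0.0741 as log2 fold change (SE, edgeR adjusted p = 2.92e-07). It was also the member with the largest rise in the replicate 1 pair, from 56.3 to 89.4 FPKM. *Mrps6* shares 159 exonic bases with *Slc5a3*, the gene of a myo-inositol transporter on the same strand, which rose by 0.63. It shares 305 with *Gm49711* on the same strand, which was not tested, and these include the bases shared with *Slc5a3*. Together, shared bases make up 19.9% of its exons. How reads of shared exons were assigned is not given in the sources used here, so the size of the rise of *Mrps6* is uncertain.

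*Mrpl9*, for a large subunit protein, was at 84.1 and 81.1 CPM with DMSO and at 142 and 132 CPM with the inhibitor (log2 fold change 0.73 ± 0.0647, edgeR adjusted p = 4.81e-06). *Mrpl45* encodes a protein at the exit of the peptide tunnel that holds the ribosome at the inner membrane. It was at 107 CPM in both DMSO libraries and at 165 and 166 CPM in the inhibitor libraries (log2 fold change 0.64 ± 0.0567, edgeR adjusted p = 5.02e-06). *Mrps35* was at 29.2 and 27.9 CPM with DMSO and at 42.5 and 41.5 CPM with the inhibitor (log2 fold change 0.56 ± 0.0808, edgeR adjusted p = 0.000157). The inhibitor libraries of these 3 genes lay above both DMSO libraries, which their selection as large rises favours.

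*Mrpl50* was at 18.3 and 19.7 CPM with DMSO and at 30.1 and 24.5 CPM with the inhibitor (log2 fold change 0.52 ± 0.116, edgeR adjusted p = 0.00252). *Mrps25* was the least certain of the 6 largest rises. It was at 48.3 and 34.4 CPM with DMSO and at 58.0 and 50.3 CPM with the inhibitor (log2 fold change 0.39 ± 0.135, edgeR adjusted p = 0.0268). Without DMSO replicate 3 the log2 fold change was 0.16 (edgeR adjusted p = 0.313), and with a correction for GC content it was 0.30 (edgeR adjusted p = 0.0763). Exons of *Nr2c2* on the opposite strand, which rose by 0.43, cover 69.8% of its exonic bases.

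**Figure D2:**
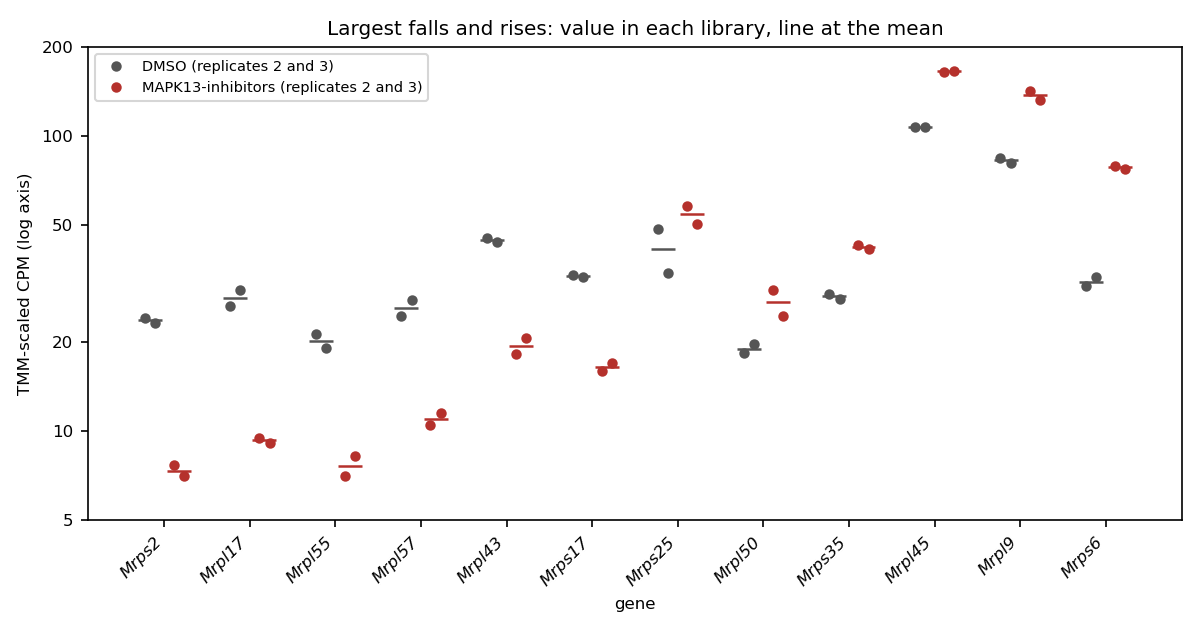
TMM-scaled CPM (y axis, log scale) of the 6 members with the largest fall and the 6 with the largest rise (x axis), with a point for each library of replicates 2 and 3 and a line at the group mean. In each gene the points of the groups do not overlap, from *Mrps2* at 7.02 to 24.2 CPM to *Mrpl45* at 107 to 166 CPM.

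Both subunits of the ribosome showed falls and rises. Of 51 genes for large subunit proteins, 26 were lower and 6 higher, with a median log2 fold change of −0.25. Of 26 genes for small subunit proteins, 14 were lower and 5 higher, with a median of −0.32. *Mrps18a* and *Mrps30* are counted with the large subunit, where their products sit despite the symbol. Genes were also grouped by whether the protein has a counterpart at the same place in the bacterial ribosome. Of 46 genes with such kin, 28 were lower and 6 higher (median −0.37), and of 31 genes for proteins particular to mitochondria, 12 were lower and 5 higher (median 0.01). Within the small subunit, 12 of 16 genes with bacterial kin and 2 of 10 without were lower, with medians of −0.52 and 0.01. Within the large subunit the shares were closer, with 16 of 30 (53.3%) and 10 of 21 (47.6%) lower and medians of −0.28 and 0.01. The differences between these groups were not tested. The median in the replicate 1 pair was −0.21 both with bacterial kin and without. Within the small subunit the medians there were −0.24 and −0.33, and within the large subunit −0.20 and −0.05. The contrast was thus not seen in the medians of all members or of the small subunit. The shares of lower genes in this pair did run the way of the fit, at 69.6% with bacterial kin and 58.1% without. They were 68.8% and 60.0% within the small subunit and 70.0% and 57.1% within the large subunit.

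The small subunit genes without bacterial kin that fell were *Mrps26* (log2 fold change −0.78) and *Mrps18b* (−0.70), and those that rose were *Mrps35* and *Mrps25*. The remaining 6, *Mrps31*, *Mrps33*, *Mrps27*, *Mrps22*, *Mrps23* and *Mrps34*, lay between −0.12 and 0.15 and were not called. In this fit the only small subunit gene with bacterial kin that was not called was *Mrps11*, at 0.08. It was called with the correction for GC content. The calls of *Mrps21*, *Mrps24*, *Mrps18c* and *Mrps9* were lost in 5, 4, 4 and 1 of the 12 alternative fits.

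*Mrps18a*, *Mrps18b* and *Mrps18c* encode paralogous proteins that take different places in the ribosome. *Mrps18b* was at 36.1 and 36.8 CPM with DMSO and at 21.4 and 23.3 CPM with the inhibitor (log2 fold change −0.70 ± 0.0882, edgeR adjusted p = 5.5e-05). *Mrps18a* was at 23.7 and 24.9 CPM with DMSO and at 19.4 and 17.9 CPM with the inhibitor (log2 fold change −0.38 ± 0.0978, edgeR adjusted p = 0.00609). *Mrps18c* was at 19.8 and 22.8 CPM with DMSO and at 18.1 and 15.7 CPM with the inhibitor (log2 fold change −0.33 ± 0.115, edgeR adjusted p = 0.0266). All 3 fell, but the call of *Mrps18a* was lost without DMSO replicate 3 (log2 fold change −0.35). It was also lost with a correction for GC content (log2 fold change −0.19, edgeR adjusted p = 0.115). The call of *Mrps18c* was lost without the same library (log2 fold change −0.24). It was also lost under scaling by library totals (−0.21, edgeR adjusted p = 0.137) and upper-quartile scaling (−0.25, edgeR adjusted p = 0.0773), and with DESeq2 (−0.32, adjusted p = 0.0954).

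*Mrpl12* encodes the stalk protein that binds translation factors and is also known to bind the mitochondrial RNA polymerase. It was at 47.2 and 50.3 CPM with DMSO and at 22.7 and 25.9 CPM with the inhibitor (log2 fold change −1.0 ± 0.091, edgeR adjusted p = 5.56e-06). *Mrpl58* encodes a peptidyl-tRNA hydrolase that frees stalled ribosomes and is also a subunit. It was at 18.4 and 18.7 CPM with DMSO and at 11.7 and 12.0 CPM with the inhibitor (log2 fold change −0.65 ± 0.105, edgeR adjusted p = 0.000334). Despite its symbol, *Mrps36* encodes no ribosomal protein but a subunit of the alpha-ketoglutarate dehydrogenase complex. It was at 18.3 and 15 CPM with DMSO and at 19.1 and 18.2 CPM with the inhibitor, and the difference did not pass the test (log2 fold change 0.17 ± 0.118, edgeR adjusted p = 0.232).

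Levels per length were read from the replicate 1 pair. In its DMSO library the members ranged from 4.02 FPKM for *Mrpl17* to 132 FPKM for *Mrpl52*. This is a 32.8-fold range around a median of 25.8 FPKM, although the products stand in fixed ratios in the ribosome. The range depends on the lengths used for the FPKM. *Mrpl17* and *Mrpl52* have 7605 and 1109 exonic bases in the gene models. Their mean DMSO levels in the count libraries, which are not per length, were 28.3 and 36.8 CPM. After *Mrpl52*, the highest levels were those of *Mrpl33* (123 FPKM), *Mrps18c* (72.0 FPKM), *Mrpl23* (70.2 FPKM) and *Mrpl18* (67.9 FPKM). With 1 library there is no spread to say which neighbours in this order differ.

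Among these 5, *Mrpl52* and *Mrpl23* fell clearly in the count libraries. *Mrpl52* was at 34.6 and 39.1 CPM with DMSO and at 19.0 and 19.3 CPM with the inhibitor (log2 fold change −0.94 ± 0.0946, edgeR adjusted p = 1.14e-05). *Mrpl23* was at 49.1 and 48.8 CPM with DMSO and at 29.2 and 30.5 CPM with the inhibitor (log2 fold change −0.71 ± 0.0779, edgeR adjusted p = 2.09e-05). *Mrpl33*, at 30.9 and 31.0 CPM against 28.9 and 30.3 CPM, and *Mrpl18*, at 44.6 and 48.1 CPM against 45.2 and 47.1 CPM, were not called (edgeR adjusted p = 0.518 and 0.942).

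A further 5 mitochondrial ribosomal proteins have genes without an *Mrp* symbol, and 2 of these were lower and 2 higher. *Gadd45gip1* was at 68.1 and 69.1 CPM with DMSO and at 43.4 and 45.7 CPM with the inhibitor (log2 fold change −0.62 ± 0.07, edgeR adjusted p = 2.57e-05). *Chchd1* was at 26.0 and 25.6 CPM with DMSO and at 18.8 and 19.1 CPM with the inhibitor (log2 fold change −0.45 ± 0.0922, edgeR adjusted p = 0.00166). *Dap3*, a GTP-binding protein of the small subunit, was at 106 and 99.2 CPM with DMSO and at 124 and 125 CPM with the inhibitor (log2 fold change 0.28 ± 0.0614, edgeR adjusted p = 0.00256). The call of *Dap3* was lost without DMSO replicate 3 (log2 fold change 0.22). *Ptcd3*, an RNA-binding pentatricopeptide protein, was at 52.7 and 49.3 CPM with DMSO and at 60.3 and 56.0 CPM with the inhibitor (log2 fold change 0.19 ± 0.0756, edgeR adjusted p = 0.0482), a call lost in 6 of the 12 alternative fits. Among these were the edgeR fits without DMSO replicate 2, DMSO replicate 3 or inhibitor replicate 2, with log2 fold changes of 0.22, 0.13 and 0.13. *Aurkaip1*, at 51.7 and 49.5 CPM against 52.5 and 46.9 CPM, was not called. In the replicate 1 pair *Dap3* (40.8 to 34.5 FPKM) and *Ptcd3* (20.4 to 19.2 FPKM) were lower.

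In the replicate 1 pair, 51 of the 78 members (65.4%) were lower with the inhibitor, against 39.3% of the 15825 tested genes listed in both tables. The median log2 ratio, on the scale of log2(FPKM + 1), was −0.21 over the members and 0.07 over those genes. This pair shares no library with the fit. Of the 40 members called lower in the fit, 30 (75%) were lower in this pair too, as were 56.8% of all 5183 genes called lower. Of the 11 members called higher, 5 (45.5%) were higher in this pair, against 75.3% of all 5010 genes called higher. Across the 78 members, which share these libraries, the log2 fold change and the log2 ratio had a Spearman correlation of 0.25, and across all genes one of 0.27.

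The order of the members thus differed between the pairs. *Mrps2* went from 12.6 to 13.1 FPKM, and *Mrpl17* at 4.02 FPKM in both libraries, although they had the largest falls in the count libraries. *Mrpl55* went from 19.5 to 11.3 FPKM and *Mrpl57* from 15.1 to 10.1 FPKM, the direction of the fit. *Mrps28* (28.8 to 13.1 FPKM) and *Mrpl23* (70.2 to 34.2 FPKM) had the lowest log2 ratios of this pair, −1.08 and −1.01, and fell in the fit by 0.73 and 0.71. *Mrps28* was named after its values were seen. Of the largest rises, *Mrpl45* was higher (20.5 to 24.0 FPKM), whereas *Mrpl9* (47.1 to 43.1 FPKM), *Mrps35* (23.0 to 16.2 FPKM) and *Mrpl50* (11.1 to 10.7 FPKM) were lower. *Mrpl43*, with a large fall in the fit, went from 27.1 to 29.4 FPKM.

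**Figure D3:**
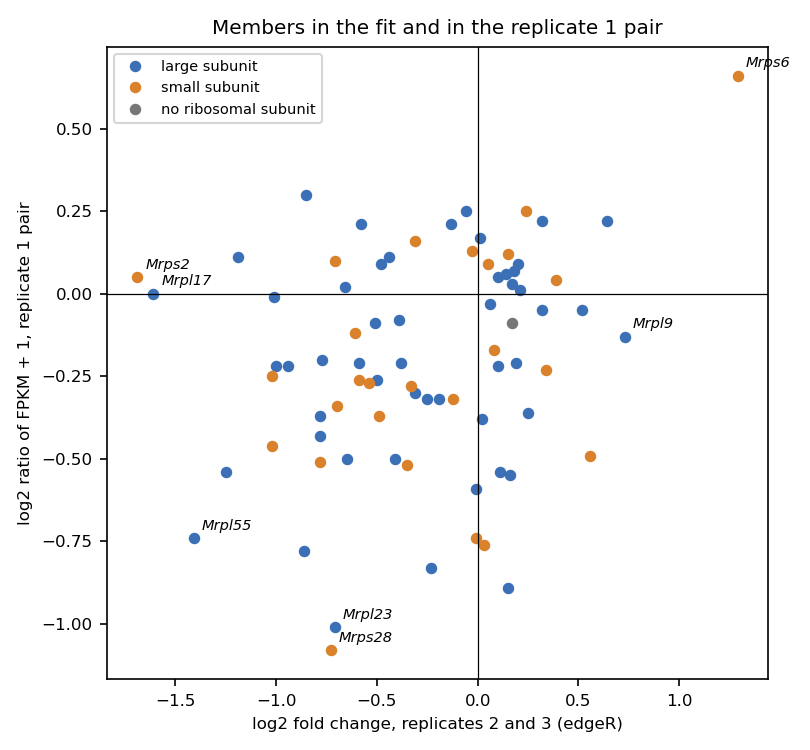
Log2 fold change in the fit of replicates 2 and 3 (x axis) and log2 ratio of FPKM + 1 in the replicate 1 pair (y axis), MAPK13-inhibitors over DMSO, with a point for each of the 78 genes coloured by ribosomal subunit. *Mrps6* is at the top right (1.29 and 0.66), and *Mrps2* at the far left has a log2 ratio of 0.05.

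The members that fell and rose differed in base composition. The median GC content of the transcripts was 52.3% for the 40 lower members, 48.9% for the 27 not called and 46.7% for the 11 higher ones, and it was 50.5% over all tested genes with a gene model. Across the members, which share the same libraries, log2 fold change and GC content had a Spearman correlation of −0.29, and across 14473 genes of −0.16. With a correction for GC content in each library, an alternative chosen after seeing the data, 38 members were lower and 15 higher. Correlations with exonic length were 0.15 over the members and 0.07 over all genes. Those with mean DMSO CPM were 0.03 over the members and −0.3 over all genes tested, where genes at higher levels tended to fall. The median DMSO level was 30.4 CPM for the members and 20.2 CPM for all tested genes with a gene model. A comparison with genes of similar level was not made.

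The members are spread over 17 chromosomes. A head-to-head arrangement was common: 26 of the 78 members (33.3%), against 14.8% of all tested genes with a gene model, begin near the start of a protein-coding gene on the other strand (starts at most 1000 bases apart, or overlapping by at most 500).

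Of the 14 lower members with a tested neighbour of this kind, 11 had a neighbour that was lower as well (78.6%), against 46.9% of 802 such genes over the whole table. *Ncapd2*, a condensin subunit that begins 100 bases from *Mrpl51*, fell by 0.72 where *Mrpl51* fell by 1.01. *Sars2*, the mitochondrial seryl-tRNA synthetase beside *Mrps12*, fell by 0.64 where *Mrps12* fell by 0.59. *Ppp1r10*, beside *Mrps18b*, fell by 0.77. The exception among the 14 that rose was *Ska3*, a kinetochore gene with a log2 fold change of 0.31, whose start lies 49 bases from that of *Mrpl57*. The 2 higher members with such a neighbour, *Mrpl44* and *Mrpl50*, stand beside *Wdfy1* (0.98) and *Zfp189* (0.51), which rose, and among all genes tested 33.9% of 487 such higher genes had a higher neighbour. With only 2 members this shows no pattern. Of 9 members not called, 2 had a lower neighbour (22.2%), against 42.6% of 707 such genes. The call of *Mrpl44* was lost in edgeR fits without DMSO replicate 2, DMSO replicate 3 or inhibitor replicate 2. Its log2 fold changes there were 0.20, 0.27 and 0.16, against 0.25 in the main fit. In 4 of the 14 pairs and in the *Mrpl44* pair the genes share exonic bases, so that part of their reads cannot be told apart. *Mrps11* and *Mrpl46* begin head to head with each other and share 173 exonic bases, and neither was called (log2 fold changes 0.08 and 0.17).

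Overlap with other genes touched more members than these. A total of 33 members share exonic bases with another gene, and 10 of them share at least 20% of theirs. Without these 10, an alternative chosen after seeing the data, 34 members were lower and 10 higher, with a median of −0.27. *Mrpl53* shares 88.0% of its exonic bases and *Mrps34* 77.8%. In *Mrpl19* (log2 fold change −0.25), which shares 1962 bases with *Gcfc2*, a gene that rose by 1.13, the call was lost in 7 of the 12 alternative fits. Among these were the edgeR fits without DMSO replicate 2, DMSO replicate 3 or inhibitor replicate 2. In them the log2 fold change stayed about as large, at −0.32, −0.20 and −0.20. Under upper-quartile scaling and scaling by library totals it was smaller, at −0.17 and −0.12.

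Promoter sequences from RefSeq (GRCm38.p6), 250 bases before to 50 bases after a gene's start, were found for 69 of the 78 members. Letters known from binding sites of factors that control mitochondrial genes were counted on both strands in genes with at least 1 promoter entry. The core letters CCGGAAG of the GABP and other ETS factors were in the promoter of 26 of 69 members (37.7%), against 17.8% of 12606 tested genes. They were in 18 of 36 lower members (50%), in 7 of 24 not called (29.2%) and in 1 of 9 higher members (11.1%). Over all tested genes these shares were 20.5%, 17.4% and 15.5%. The promoters differed in base composition too, and CCGGAAG itself contains a CpG (C followed by G). Median GC content and CpG number were 61.3% and 24 for lower members, 56.3% and 19 for those not called. They were 57.7% and 22 for higher members and 59.3% and 18 for promoters of tested genes. The differences in share were not tested.

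The letters AANATGGCG of YY1 were in 11 of 69 members (15.9%) and in 5.05% of tested genes, and the letters GCGCATGC of NRF1 in 8 members (11.6%) and in 5.20%. Both were most frequent in members not called: YY1 letters were in 16.7% of lower, 20.8% of not called and 0% of higher members, and NRF1 letters in 8.33%, 16.7% and 11.1%. The E-box letters CACGTG, which Myc and Max bind among others, were in 5 of 36 lower members (13.9%) and in 0 of the 33 others with a promoter entry. They were in 10.8% of tested genes and in 12.2% of those called lower. The letters TGATGNAA of ATF4 and ATCAAAG of TCF factors were in 0 of 69 members and in 2.94% and 3.10% of tested genes. Over all 32851 promoters, CCGGAAG was in 8.86%, AANATGGCG in 2.38%, GCGCATGC in 2.71%, CACGTG in 7.15%, TGATGNAA in 3.97% and ATCAAAG in 3.73%. A match of letters is a description of the sequence, and binding was not measured here.

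Sequences before the start are shown for members that fell with the GABP letters and for members that rose. The falling members were picked for these letters and the rising ones without regard to letters, so the contrast between them is no result. *Mrps2*, with the largest fall, and *Mrpl55* have none of the letters searched. Sequences were taken where no annotated exon lies in the window, up to the first annotated base of the gene. They run 5′ to 3′ on the strand of the gene. *Mrpl17* lies on the minus strand, at chr7:105811100-105811337, *Mrpl52* on the plus strand at chr14:54426659-54426908 and *Mrpl58* on the plus strand at chr11:115403502-115403751. *Mrpl9* lies on the plus strand at chr3:94443086-94443317 and *Mrpl45* on the plus strand at chr11:97315466-97315715. Capitals mark the GABP letters (or their reverse complement) in the first 3 and overlapping NRF1 letters on both strands in *Mrpl9*, and *Mrpl45* has none of the letters searched.
Mrpl17: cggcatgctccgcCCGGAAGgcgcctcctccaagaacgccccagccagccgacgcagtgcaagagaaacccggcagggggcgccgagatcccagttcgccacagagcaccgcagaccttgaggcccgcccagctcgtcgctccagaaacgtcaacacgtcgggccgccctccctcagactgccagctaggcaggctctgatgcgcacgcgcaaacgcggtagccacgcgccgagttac
Mrpl52: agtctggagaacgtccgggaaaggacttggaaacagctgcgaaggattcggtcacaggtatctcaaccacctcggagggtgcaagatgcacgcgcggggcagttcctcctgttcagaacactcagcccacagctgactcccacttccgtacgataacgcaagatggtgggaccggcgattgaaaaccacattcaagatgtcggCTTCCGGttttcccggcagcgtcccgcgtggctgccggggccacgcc
Mrpl58: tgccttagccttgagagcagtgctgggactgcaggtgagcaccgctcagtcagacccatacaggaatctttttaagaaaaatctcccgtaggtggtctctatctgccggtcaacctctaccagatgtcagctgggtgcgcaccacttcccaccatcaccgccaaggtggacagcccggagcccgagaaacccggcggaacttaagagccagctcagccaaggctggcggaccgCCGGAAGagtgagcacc
Mrpl9: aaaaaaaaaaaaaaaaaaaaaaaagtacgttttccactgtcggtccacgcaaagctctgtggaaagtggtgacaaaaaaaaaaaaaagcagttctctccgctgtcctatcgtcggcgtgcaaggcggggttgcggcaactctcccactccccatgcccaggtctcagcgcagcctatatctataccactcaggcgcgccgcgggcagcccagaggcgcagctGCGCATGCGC
Mrpl45: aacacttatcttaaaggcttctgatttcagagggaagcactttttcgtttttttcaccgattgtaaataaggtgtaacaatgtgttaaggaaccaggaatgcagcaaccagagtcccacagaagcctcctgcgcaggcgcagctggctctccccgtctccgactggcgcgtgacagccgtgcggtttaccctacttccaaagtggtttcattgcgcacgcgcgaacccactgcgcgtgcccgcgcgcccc

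The factors known for these letters changed in different directions. *Gabpa*, the DNA-binding subunit of GABP, was at 75.8 and 79.2 CPM with DMSO and at 55.3 and 55.7 CPM with the inhibitor (log2 fold change −0.48 ± 0.0666, edgeR adjusted p = 0.00011). *Nrf1* was at 67.6 and 70.2 CPM with DMSO and at 50 and 54.6 CPM with the inhibitor (log2 fold change −0.40 ± 0.0733, edgeR adjusted p = 0.000789). *Myc* was at 265 and 295 CPM with DMSO and at 132 and 147 CPM with the inhibitor (log2 fold change −1.0 ± 0.0723, edgeR adjusted p = 1.19e-06), whereas the replicate 1 pair gave 55.0 FPKM for DMSO and 73.7 FPKM for the inhibitor. *Gabpa* (18.3 to 12.7 FPKM) and *Nrf1* (19.6 to 11.4 FPKM) were lower in that pair as well. *Yy1* rose, from 186 and 176 CPM to 251 and 240 CPM (log2 fold change 0.44 ± 0.0577, edgeR adjusted p = 8.32e-05).

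Of the 16 regulators of mitochondrial genes in the list, 9 were lower (56.2%) and 3 higher (18.8%), against 32.3% and 31.5% of all genes tested. The smallest p-values belonged to *Atf5*, *Atf4* and *Ddit3*, transcription factors of the mitochondrial and integrated stress responses. *Atf5* was at 223 and 230 CPM with DMSO and at 33.0 and 35.9 CPM with the inhibitor, *Atf4* at 543 and 549 against 286 and 264 CPM, and *Ddit3* at 141 and 154 against 43.4 and 40.6 CPM. Their log2 fold changes were −2.72, −0.99 and −1.81. *Esrra*, an estrogen-related receptor, fell by 0.35, a call lost with the correction for GC content (edgeR adjusted p = 0.0961), and went from 10.2 to 18.3 FPKM in the replicate 1 pair. *Tfam*, which packs and transcribes mitochondrial DNA, was at 39.3 and 40.9 CPM with DMSO and at 39.7 and 40.7 CPM with the inhibitor and was not called (edgeR adjusted p = 0.974).

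Of the target and the partner named in the study's design, *Mapk13* was at 3.06 and 2.72 CPM with DMSO and at 0.592 and 1.51 CPM with the inhibitor (log2 fold change −1.47 ± 0.363, edgeR adjusted p = 0.0049). The replicate 1 pair gave 0.191 FPKM for DMSO and 3.28 FPKM for the inhibitor, the opposite direction. *Tcf7*, the gene of Tcf1, was at 158 and 164 CPM with DMSO and at 180 and 215 CPM with the inhibitor (log2 fold change 0.29 ± 0.0794, edgeR adjusted p = 0.00855).

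Factors that assemble the mitochondrial ribosome were lower for 13 of 33 genes (39.4%) and higher for 6 (18.2%), with a median log2 fold change of −0.17. For this list and those below, the shares over all genes tested were 32.3% lower and 31.5% higher. *Mpv17l2*, which acts in assembly of the ribosome, was at 10.5 and 11.2 CPM with DMSO and at 3.49 and 4.19 CPM with the inhibitor (log2 fold change −1.50 ± 0.155, edgeR adjusted p = 1.39e-05), but went from 19.2 to 31.5 FPKM in the replicate 1 pair. *Trub2*, a pseudouridine synthase, fell by 0.93 and *Mtg1*, a GTPase of large subunit assembly, by 0.91. Of 19 tested translation factors, 5 were lower (26.3%) and 6 higher (31.6%), near the shares of all genes (median −0.06). *Mtif2*, an initiation factor, fell by 0.58, while the initiation factor gene *Mtif3* and *Guf1*, for an elongation factor, rose by 0.67 and 0.88. *Guf1* went the other way in the replicate 1 pair, from 6.07 to 4.13 FPKM.

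Of 20 genes for mitochondrial aminoacyl-tRNA synthetases and tRNA amidation, 10 were lower and 7 higher (median −0.10). *Aars2* and *Rars2*, which charge alanine and arginine tRNAs, fell by 1.27 and 0.99, and log2 fold changes in this list ran from −1.27 to 1.35. Of 16 genes for transcription and upkeep of mitochondrial DNA, 8 were lower and 4 higher (median −0.40). The DNA ligase gene *Lig3* and *Twnk* both fell by 1.28, and the termination factor gene *Mterf2* rose by 1.55 but went from 4.08 to 3.22 FPKM in the replicate 1 pair.

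The messages that this ribosome translates were measured in the count libraries only. Of 13 messages of mitochondrial DNA, 8 were lower (61.5%) and 0 were higher by edgeR's quasi-likelihood test, with a median log2 fold change of −0.23. At an unadjusted p under 0.05, 0 were higher by edgeR and 1 by DESeq2, and DESeq2 too called 8 lower and 0 higher after adjustment. *ND1* was at 410 and 425 CPM with DMSO and at 313 and 288 CPM with the inhibitor (log2 fold change −0.47 ± 0.0574, edgeR adjusted p = 4.36e-05). *ND2* and *ND5* fell by 0.46 and 0.35. The 3 cytochrome c oxidase messages *COX1*, *COX2* and *COX3* had log2 fold changes of 0.06, 0.00 and 0.12 and were not called. Without TMM scaling, the summed counts of the 13 messages made up 0.959% and 0.940% of the DMSO libraries and 1.08% and 0.952% of the inhibitor libraries. Poly-T selection reads these messages and the nuclear ones differently, and mitochondrial rRNAs were not analysed here.

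Chaperones and proteases of the mitochondrial matrix and membranes were lower for 8 of 11 genes (72.7%) and higher for 2 (18.2%), with a median of −0.55. *Hspa9*, the matrix Hsp70, was at 681 and 695 CPM with DMSO and at 375 and 369 CPM with the inhibitor (log2 fold change −0.89 ± 0.0488, edgeR adjusted p = 2.23e-07). *Lonp1*, a matrix protease, was at 577 and 588 CPM with DMSO and at 266 and 281 CPM with the inhibitor (log2 fold change −1.09 ± 0.0529, edgeR adjusted p = 1.1e-07). Both were also lower in the replicate 1 pair, *Hspa9* from 239 to 110 FPKM and *Lonp1* from 128 to 50.2 FPKM. *Htra2* fell by 1.49.

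Nuclear genes for respiratory chain subunits had 41 lower and 17 higher of 85 tested, with a median log2 fold change of −0.22. *Uqcrq* and *Cyc1* of complex III fell by 1.27 and 1.38, and *Cox6a2*, a cytochrome c oxidase isoform of muscle, fell by 3.47 from 15.6 and 15.7 CPM to 1.41 and 1.42 CPM. Cytosolic ribosomal protein genes had 56 lower (73.7%) and 3 higher (3.95%) of 76, with a median of −0.21. Their interquartile range was 0.272 and that of the respiratory chain genes was 0.584. It was 0.843 over the mitochondrial ribosomal protein genes and 1.04 over all genes tested. *Rps12* and *Rpl36a* fell by 0.71 and 0.68, although *Rps12* went from 893 to 1170 FPKM in the replicate 1 pair. Differences between these lists and the members were not tested.

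The replicate 1 pair had more lower than higher genes in each of these lists, where 39.3% of all genes were lower. Lower were 26 of 33 assembly factors, 11 of 19 translation factors, 17 of 20 synthetase and amidation genes and 13 of 16 genes for mitochondrial DNA. So were 12 of 16 regulators, 8 of 11 chaperones and proteases, 55 of 85 respiratory chain genes and 62 of 76 cytosolic ribosomal protein genes. These are directions in 1 library per group and no calls.

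Markers of cell types moved with the treatment in the same libraries. In this bulk RNA, fewer cells of a type and less RNA per cell cannot be told apart. Sums below are CPM of library totals. The 7 CD4+ T cell markers found in the table summed to 1600 and 1620 CPM with DMSO and to 947 and 1060 CPM with the inhibitor, and 6 were lower. Their sum in the replicate 1 pair went from 1020 to 934 FPKM, with 4 lower and 3 higher. *Cd5* was the most abundant with DMSO and *Cd4* with the inhibitor. *Cd4* itself was at 275 and 276 CPM with DMSO and at 267 and 283 CPM with the inhibitor and was not called.

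B cell transcripts were present in every count library, and 8 of 11 markers found in the table were higher and 2 lower. They summed to 1120 and 1100 CPM with DMSO and to 1420 and 1430 CPM with the inhibitor, and *Pax5* was the most abundant with the inhibitor. In the replicate 1 pair their sum went from 53.7 to 37.2 FPKM. Of 7 macrophage markers tested 6 were higher, and the 8 listed summed to 12.7 and 11.2 CPM with DMSO and to 43.7 and 35.7 CPM with the inhibitor, mostly from *Cd68*. Their sum in the replicate 1 pair went from 2.96 to 9.15 FPKM. Of 6 erythroid markers tested 5 were higher, and the 8 listed summed to 7.52 and 7.09 CPM with DMSO and to 94.1 and 67.0 CPM with the inhibitor, and *Hbb-bs* was the most abundant with the inhibitor. The replicate 1 pair gave sums of 0.928 and 1.93 FPKM.

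The CD8 T cell markers *Cd8a* and *Cd8b1* were both lower and summed to 11.2 and 10.4 CPM with DMSO and to 5.76 and 8.16 CPM with the inhibitor, but their sum went from 3.49 to 8.39 FPKM in the replicate 1 pair. The 6 neutrophil markers summed to at most 0.460 CPM in any count library, with *S100a9* at 0 in each, and the 3 NK cell markers to at most 0.975 CPM. The part of these cell types in the values of the mitochondrial ribosomal protein genes was not tested.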

How the data were processed

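For replicates 2 and 3 the authors deposited raw counts per gene, and the submitters' processing notes name fastp 0.21.0, HISAT2 2.1.0, StringTie 2.1.5, DESeq2 1.30.1 and mm10. For the replicate 1 pair (FastQC, HISAT2, GRCm38) the authors deposited values read as FPKM, which sum to 405150 and 390729, and no pooled test was made.

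Counts were fitted in R 4.3.3 with edgeR 4.0.16: filterByExpr (minimum count 10, total 15), TMM factors (0.96 and 0.955 for DMSO, 1.05 and 1.04 for the inhibitor), quasi-likelihood test and Benjamini-Hochberg adjustment. SE was the absolute log2 fold change over the square root of F. The fit was tested on simulated data with a common dispersion for all genes and few genes changed. In these data estimates were unbiased and false calls few, and most changes of 1 on the log2 scale were called. Of changes of 0.5, in genes drawn from all levels, more were missed than called. In the real data every member with an absolute log2 fold change of 0.24 or more was called. The share required to pass was lowered after a first run. The spread between replicates exceeded counting noise (mean chi-square per gene 3.08 for DMSO and 9.6 for the inhibitor). The simulation held neither this difference between groups nor so many changed genes, so it does not measure false calls in the real data. Gene models came from GENCODE vM21 (GRCm38) and promoters from RefSeq.

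The members and lists were chosen with earlier results of these data known. Full values are given for the 6 called members with the largest fall and the 6 with the largest rise (same direction in pairs 2 and 3), the 5 with the highest FPKM, fixed single genes, and up to 3 genes of lowest p per list, of which some are not reported here. Alternatives were RLE, upper-quartile and total scaling, other count filters, a replicate block, DESeq2 1.42.0, each library left out, an adjusted p under 0.01 and, for FPKM, a pseudocount of 0.1 in place of 1 and a minimum of 1. A correction for GC content and the members without large exonic overlap were added after seeing the data. Python 3.11.15 was used for tables.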

Additional observations from a re-analysis of the deposited data

How the results depend on the processing

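Direction and side of the threshold were the same in all 12 alternative fits for 33 of the 40 lower members and 5 of the 11 higher members. Of the 27 not called, 13 were not called in any of these fits, most of them with values on both sides of 0. No called member changed sign. Of 477 values of 40 named genes outside the members, 469 kept their side of the threshold and 8 lost their call, and none of these genes that were called changed sign. Neighbouring genes, cell type markers and cytochrome c oxidase messages were not followed gene by gene. The number of higher members was 18 under upper-quartile scaling, 22 under scaling by library totals and 7 at an adjusted p under 0.01. The median log2 fold change of the members was −0.20 under upper-quartile scaling, −0.15 under scaling by library totals, −0.23 with at least 10 counts in each library and −0.20 with the correction for GC content. The cause was not tested. Leaving out 1 library at a time gave 35 to 41 lower members, 6 to 14 higher members and medians from −0.31 to −0.23, with the lone library of a group assumed to vary like the other group.

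Replicate numbers 2 and 3 occur in both groups, but the deviations of same-numbered libraries had a correlation of −0.00641. With the replicate number as a block, 40 members were lower and 11 higher, with a median of −0.28, and over all genes 5384 were lower and 5261 higher. In the replicate 1 pair 51 members were lower under each pseudocount and minimum, with medians of −0.22 to −0.21. Counts as low as 131 limit the precision of the least abundant members, and the depth of the replicate 1 pair is unknown.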
